A study of Mus musculus with 6 samples.

Results

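The contactin genes Cntn1, Cntn2, Cntn3, Cntn4, Cntn5 and Cntn6 and the contactin-associated protein genes Cntnap2, Cntnap4 and Cntnap5a were examined for binding by the RNA-binding proteins NOVA1 and NOVA2. A cluster, a stretch of genome covered by overlapping sequence tags, was taken as a member when it overlapped the annotated span of 1 of these 9 genes by at least 1 nt on the gene's strand. Of 9988 NOVA1 clusters, 49 were members, and of 36591 NOVA2 clusters, 270 were members. No cluster fell in more than 1 of the 9 genes.

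The clusters came from HITS-CLIP, in which RNA is crosslinked to protein with ultraviolet light, recovered with an antibody and sequenced. NOVA1 and NOVA2 were each precipitated from wild-type CD1 mouse cortex at embryonic day 18.5, with 3 biological replicates per protein, and all 6 libraries were of the same strain, tissue and age with no other treatment. The authors pooled the 3 libraries of a protein, so each cluster carries 1 tag count, no spread between replicates could be computed, and no difference below was tested. Whether a count is all tags of a cluster or its highest depth is not settled by the files, so the sums of tags given here may be sums of depths. Intervals are 95% confidence intervals (Wilson for shares, order statistics for medians) and cover counting error only.

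Contactins are cell adhesion molecules of the immunoglobulin superfamily, held to the neuronal surface by a lipid anchor. They act in axon growth, axon guidance and synapse formation. The contactin-associated proteins are transmembrane relatives of the neurexins, and several of them bind contactins, as Cntnap2 binds Cntn2 beside the node of Ranvier, where the pair gathers potassium channels. Many of these genes have introns of great length. NOVA proteins bind RNA at YCAY, where Y is a pyrimidine, and regulate splicing in neurons from sites near alternative exons.

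The sequence under the highest NOVA2 intron cluster of each gene is shown first, since these are the strongest sites the results turn on. Each is the transcribed strand in DNA letters, up to 150 nt around the cluster's midpoint, with every YCAY in capitals. In these letters the motif is TCAT or its variant TCAC, or else the form CCAT or the related form CCAC, and overlapping copies on the gene's strand were counted.
Cntn1 intron 1, chr15:91925747-91925896 (mm9, plus strand), 269 tags: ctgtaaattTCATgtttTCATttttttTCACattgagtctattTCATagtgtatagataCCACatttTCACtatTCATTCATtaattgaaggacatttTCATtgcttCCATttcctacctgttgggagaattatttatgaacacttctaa
Cntn2 intron 16, chr1:134416020-134416169 (mm9, minus strand), 700 tags: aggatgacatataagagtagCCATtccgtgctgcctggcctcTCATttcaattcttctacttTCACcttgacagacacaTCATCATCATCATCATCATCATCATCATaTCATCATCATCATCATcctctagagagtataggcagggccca
Cntn3 intron 3, chr6:102310555-102310704 (mm9, minus strand), 19 tags: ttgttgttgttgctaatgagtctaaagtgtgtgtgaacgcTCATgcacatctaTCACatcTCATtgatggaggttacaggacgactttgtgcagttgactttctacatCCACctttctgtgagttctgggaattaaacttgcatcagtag
Cntn4 intron 3, chr6:105930276-105930425 (mm9, plus strand), 105 tags: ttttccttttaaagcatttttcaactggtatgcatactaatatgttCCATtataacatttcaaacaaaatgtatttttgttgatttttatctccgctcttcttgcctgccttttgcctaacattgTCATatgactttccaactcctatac
Cntn5 intron 3, chr9:10271702-10271832 (mm9, minus strand), 221 tags: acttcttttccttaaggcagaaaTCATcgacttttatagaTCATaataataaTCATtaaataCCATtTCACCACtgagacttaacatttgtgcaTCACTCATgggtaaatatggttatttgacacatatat
Cntn6 intron 7, chr6:104682818-104682909 (mm9, plus strand), 76 tags: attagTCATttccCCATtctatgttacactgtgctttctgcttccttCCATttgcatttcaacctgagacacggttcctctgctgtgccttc
Cntnap2 intron 1, chr6:45019888-45020037 (mm9, plus strand), 420 tags: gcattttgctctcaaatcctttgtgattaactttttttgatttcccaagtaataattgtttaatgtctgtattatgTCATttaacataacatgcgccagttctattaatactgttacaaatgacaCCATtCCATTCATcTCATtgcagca
Cntnap4 intron 3, chr8:115191334-115191483 (mm9, plus strand), 30 tags: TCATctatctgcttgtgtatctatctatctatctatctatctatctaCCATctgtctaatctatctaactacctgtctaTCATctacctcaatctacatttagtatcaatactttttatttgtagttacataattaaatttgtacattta
Cntnap5a intron 1, chr1:117694991-117695140 (mm9, plus strand), 28 tags: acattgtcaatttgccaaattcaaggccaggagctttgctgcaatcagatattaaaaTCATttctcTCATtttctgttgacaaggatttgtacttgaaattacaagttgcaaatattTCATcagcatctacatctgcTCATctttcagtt
The Cntn2 site held 17 YCAY in the printed 150 nt, most of them in an almost unbroken chain of overlapping TCAT. The Cntn1 site held 10 that were spread through the window, and the Cntn5 site 8 in 131 nt. The highest Cntn4 site held 2 in the printed window and 6 over its whole 272 nt. Of 44310 windows of 150 nt that tiled the introns of the 9 genes, 90.9% held at least 1 YCAY and 47.4% held at least 3, so a single copy does not set a site apart.

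NOVA2 clusters were found in all 9 genes and NOVA1 clusters in 7. Cntnap2 had the most clusters in both lists, with 19 NOVA1 and 75 NOVA2 clusters. Cntn5 followed in the NOVA2 list with 9 NOVA1 and 70 NOVA2 clusters, then Cntn4 with 3 and 41, and Cntn1 with 10 and 38. Cntnap5a had 2 NOVA1 and 15 NOVA2 clusters, Cntnap4 1 and 8, and Cntn2 5 and 2. Cntn6, with 13 NOVA2 clusters, and Cntn3, with 8, had 0 in the NOVA1 list. That means no NOVA1 cluster of at least 10 tags, the lowest count in either list, and not that NOVA1 tags were absent. The 4 genes Cntn1, Cntn4, Cntn5 and Cntnap2 together held 83.0% of the NOVA2 and 83.7% of the NOVA1 member clusters.

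**Figure D1:**
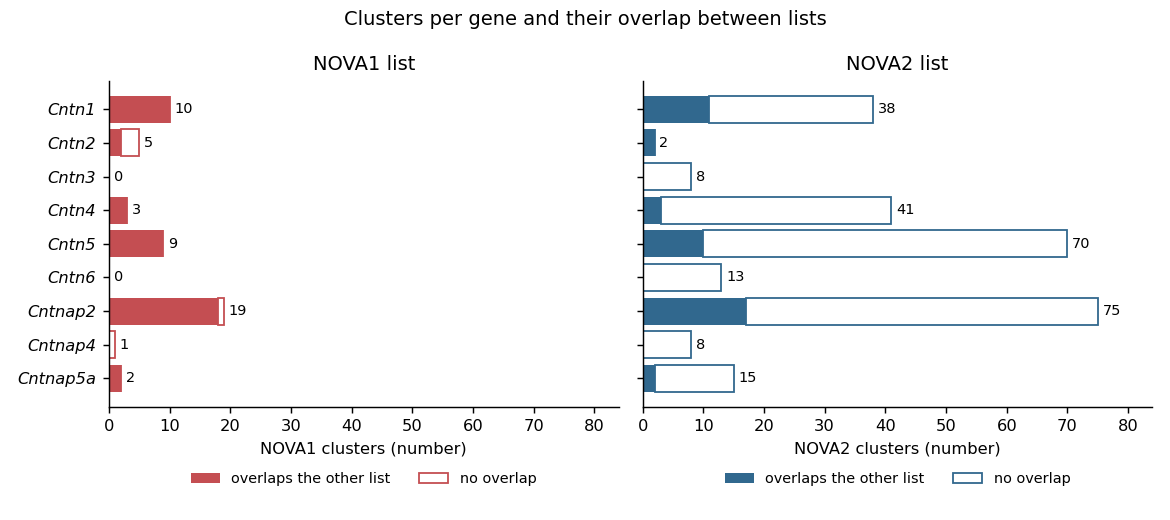
Number of NOVA1 (left) and NOVA2 (right) clusters per gene on a common axis, with filled bars for clusters that overlapped the other list and open bars for those that did not. Open bars make up most of the NOVA2 panel (225 of 270 clusters) and little of the NOVA1 panel (5 of 49).

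The genes with most NOVA2 clusters were among the longest, with Cntn1 as the exception. Among 2401 coding genes of at least 100 kb, 66.6% had a NOVA2 cluster and 40.9% had a NOVA1 cluster, and of the 8 member genes of that length 8 and 6 did. Cntnap2, which spans 2241 kb, ranked 5 by length, 45 by NOVA2 clusters and 789 by NOVA2 clusters per 100 kb (3.35). Cntn5 ranked 25 by length and 54 by NOVA2 clusters, with 5.63 per 100 kb. Cntn1 showed the opposite order. With a span of 291 kb it ranked 558 by length, but 121 by NOVA2 clusters and 86 by density, with 13.1 NOVA2 clusters per 100 kb. Cntnap5a was the sparsest of the 9, with 1.67 NOVA2 clusters per 100 kb over 897 kb. No count or density was adjusted for the RNA level of a gene, and the part of RNA level in these ranks was not tested. The median over the 8 long members was 3.43 NOVA2 clusters per 100 kb, beside 1.26 over all coding genes of at least 100 kb and 3.33 over the 200 genes of at least 500 kb. The members were chosen with earlier results of these data known, which limits this comparison. Long family genes outside the set had 1.40 per 100 kb in Cntnap5b, 0.60 in Cntnap3 and 0.47 in Cntnap5c. The same choice of members limits a comparison with these genes, and Cntnap5a, at 1.67, lay close to Cntnap5b.

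**Figure D2:**
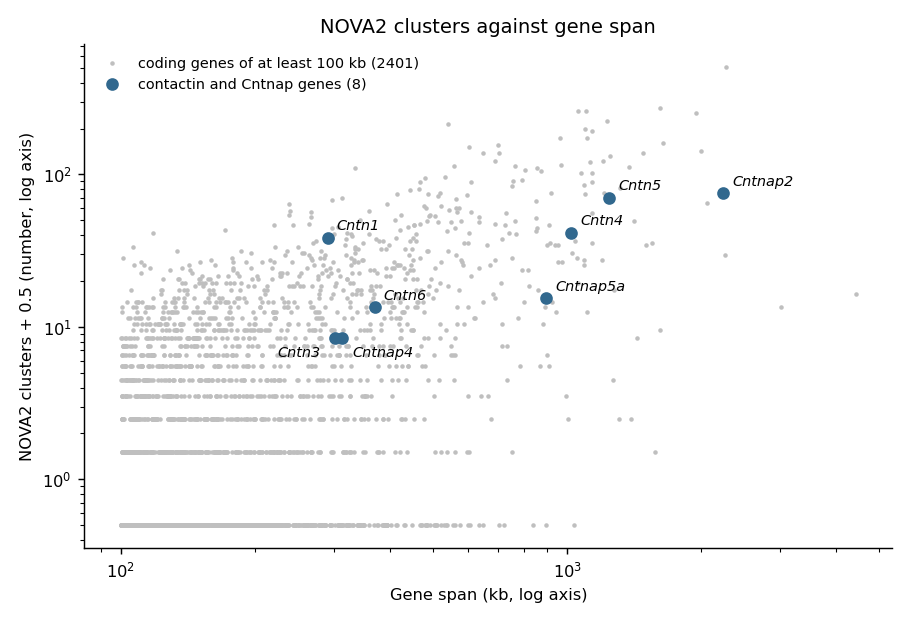
NOVA2 clusters (plus 0.5, log axis) against gene span (kb, log axis) for 2401 coding genes of at least 100 kb, grey, with the 8 contactin and Cntnap genes of that length in blue. Cntn1 lies high for its span with 38 clusters in 291 kb, while Cntnap5a lies lower with 15 in 897 kb.

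Cntn1, the contactin that joins Cntnap1 at the axon-glia junctions of myelinated fibers, had the most tags in the NOVA1 list. Its 10 NOVA1 clusters summed to 567 tags, 43.8% of the NOVA1 tags of all 9 genes, and its 38 NOVA2 clusters to 1917. Most of the NOVA1 tags lay in 1 cluster of the 3' UTR at chr15:92170439-92171181, with 368 tags. That cluster spanned a pair of NOVA2 clusters of 370 and 196 tags. The stretch of 30 nt with most YCAY was the same under the 368-tag NOVA1 and the 370-tag NOVA2 cluster, and it is printed here. It was picked by its motifs, and the clusters do not show where within them either protein bound.
Cntn1 3' UTR, chr15:92170497-92170526 (mm9, plus strand): TCATCATTCATgatattttgagttttCCAT
In all, 4 NOVA1 and 5 NOVA2 clusters lay in the Cntn1 3' UTR, every one overlapping the other list. The other Cntn1 clusters, 6 for NOVA1 and 33 for NOVA2, were intronic, with 5 and 25 of them in intron 1.

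Cntn2, an axonal contactin of early outgrowing fibers, was unlike the long genes. It spans 33.5 kb and had more NOVA1 than NOVA2 clusters. Its NOVA2 intron cluster at chr1:134416000-134416189 had 700 tags, the highest count of any member cluster and 94.2% of the gene's NOVA2 tags. The overlapping NOVA1 cluster at chr1:134415930-134416159 had 95 tags, the highest NOVA1 intron count of the 9 genes. Both lay in intron 16, 183 and 113 nt upstream of exon 17, an exon of 71 nt. The remaining NOVA2 cluster, of 43 tags, overlapped a NOVA1 cluster of 20 tags in the 3' UTR. The other 3 NOVA1 clusters, with 13 and 18 tags in the 3' UTR and 17 in coding sequence, overlapped no NOVA2 cluster. The coding cluster, at chr1:134411939-134412189, was the sole member cluster in coding sequence in either list.

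Cntn3, Cntn4, Cntn5 and Cntn6, which bind the receptor phosphatase Ptprg, had nearly all their clusters in introns. Cntn4 had 41 NOVA2 clusters of 10 to 105 tags and Cntn5 had 70 of 10 to 221 tags, all intronic. The 3 NOVA1 clusters of Cntn4 had 10 to 17 tags and the 9 of Cntn5 had 10 to 41. Cntn3 was low throughout, with 8 NOVA2 clusters of 10 to 19 tags. Cntn6 had 12 intron clusters of up to 76 tags and 1 of 13 tags in the 3' UTR.

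Cntnap2, which is linked to autism and epilepsy in humans, had intron clusters alone. Its highest NOVA2 cluster had 420 tags and lay in intron 1 at chr6:45019762-45020162, 9.90 kb from the 5' end of the gene. That site overlapped 2 NOVA1 clusters of 27 and 38 tags. The next highest, 166 tags, lay in intron 13 at chr6:46524714-46524889 and overlapped a NOVA1 cluster of 19 tags. Cntnap4, a protein of interneurons, had 8 NOVA2 intron clusters of 10 to 30 tags, and its single NOVA1 cluster, of 19 tags, lay in the 3' UTR at chr8:115406013-115406267 with no NOVA2 cluster. Cntnap5a had 15 NOVA2 clusters of 10 to 28 tags and 2 NOVA1 clusters of 10 and 19 tags, all in introns.

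**Figure D3:**
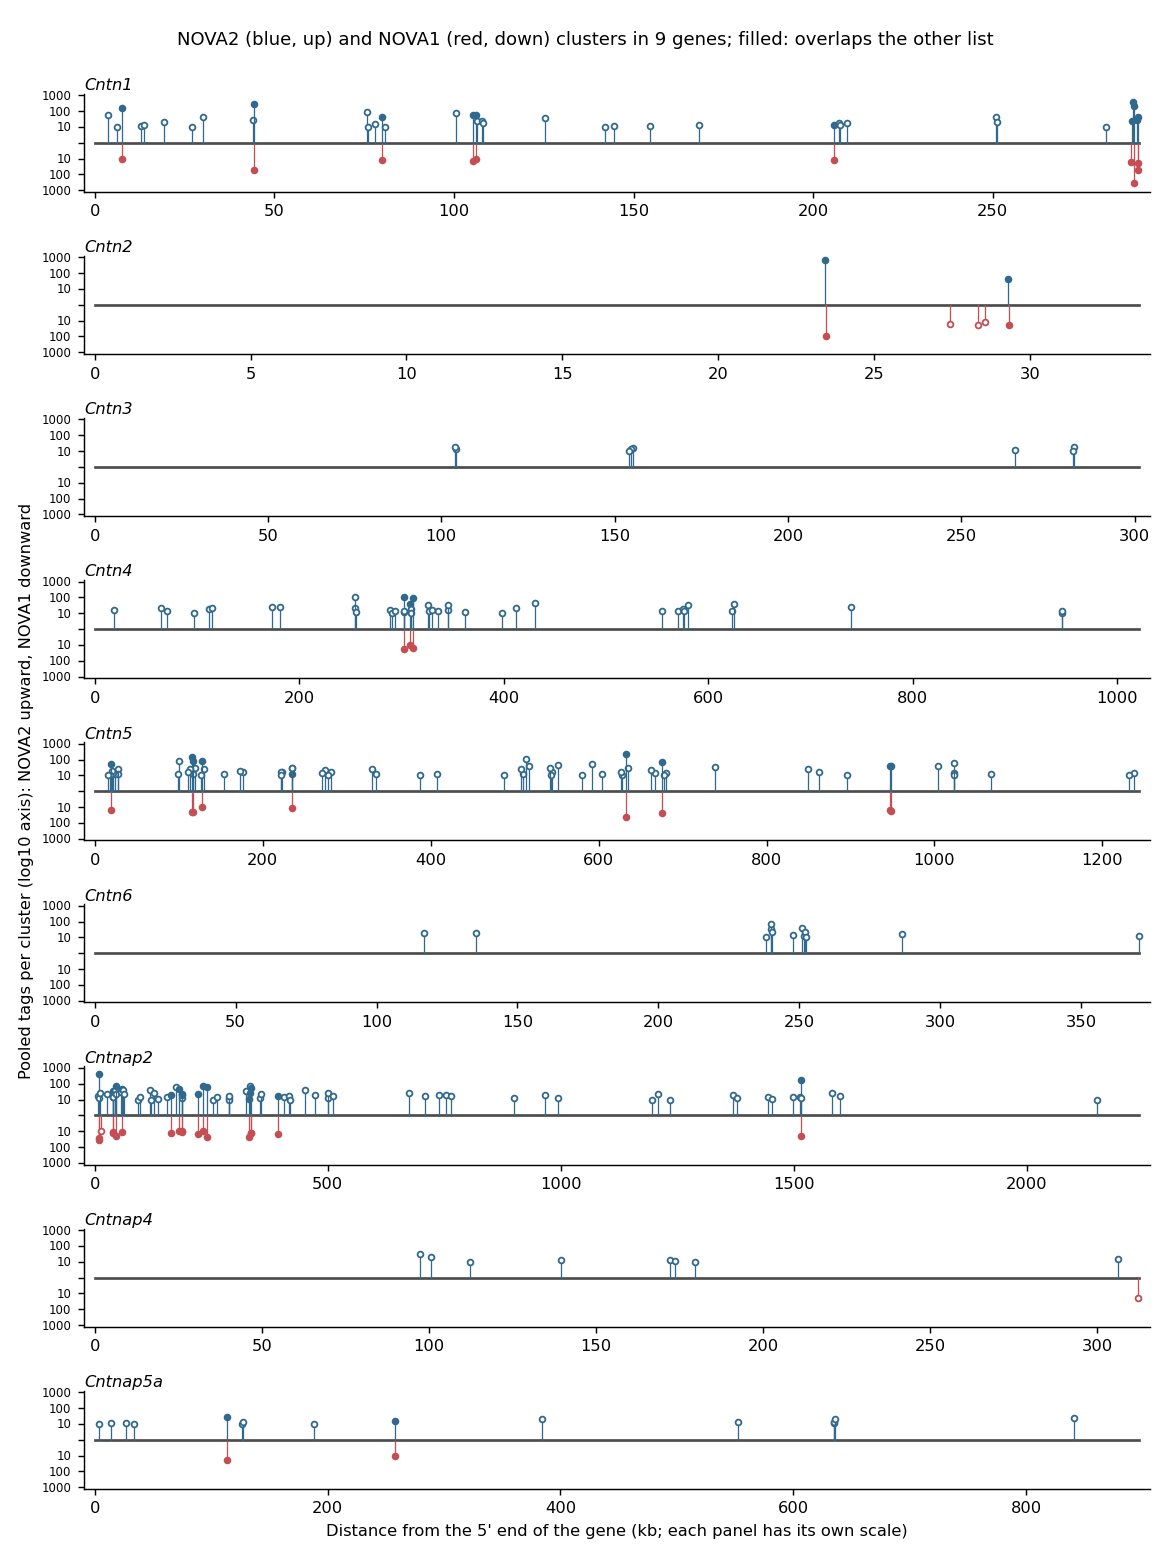
Clusters along each gene, by distance from its 5' end (kb, own scale per panel), with the pooled tag count on a log axis upward for NOVA2 and downward for NOVA1, filled where the cluster overlapped the other list. Clusters crowd into the first 593.6 kb intron of Cntnap2 and lie at the 3' end of Cntn1, while Cntn3 and Cntn6 carry no NOVA1 marks.

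By annotation class, 263 of 270 NOVA2 member clusters lay in introns (97.4%, 94.7 to 98.7) and 7 in 3' UTRs. Of 49 NOVA1 member clusters, 40 lay in introns (81.6%, 68.6 to 90.0), 8 in 3' UTRs and 1 in coding sequence. Over the whole lists, 74.6% of NOVA2 and 40.3% of NOVA1 clusters were intronic. The whole lists also count clusters outside genes, which the member rule leaves out, so these shares have unlike bases. Intergenic clusters were 7.37% of the NOVA2 and 5.20% of the NOVA1 list. Those downstream of genes were 3.32% and 6.07%, and those upstream 0.41% and 0.36%. No member cluster lay in a 5' UTR. All 16 exonic clusters lay in Cntn1, Cntn2, Cntn6 and Cntnap4.

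Of the NOVA1 member clusters, 44 of 49 overlapped a NOVA2 cluster (89.8%, 78.2 to 95.6), beside 80.1% of all NOVA1 clusters. Among intron clusters the counts were 39 of 40 (97.5%, 87.1 to 99.6), beside 95.5% in the whole list, so the members' share lay near the background. The 1 intron cluster without overlap, of 10 tags, lay in intron 1 of Cntnap2 at chr6:45024255-45024345. In the other direction, 45 of 270 NOVA2 member clusters overlapped a NOVA1 cluster (16.7%, 12.7 to 21.6), beside 22.1% of all. For intron clusters these values were 39 of 263 (14.8%, 11.04 to 19.6), beside 14.1%. By gene, the shared fraction of NOVA2 clusters was 28.9% (17.0 to 44.8) in Cntn1, 22.7% (14.7 to 33.3) in Cntnap2, 14.3% (7.95 to 24.3) in Cntn5 and 7.32% (2.52 to 19.4) in Cntn4. These intervals overlapped. The Cntn1 value mixes classes, since 5 of its 11 shared clusters lay in the 3' UTR. In the whole list 64.5% of NOVA2 3' UTR clusters were shared. Cntnap2, Cntn5 and Cntn4 had NOVA2 clusters in introns alone. Among introns, Cntn1 shared 6 of 33 NOVA2 clusters, a lower fraction than in Cntnap2. Cntn3, Cntn6 and Cntnap4 shared none of their 8, 13 and 8 NOVA2 clusters.

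Shared NOVA2 intron clusters were higher than unshared ones, with medians of 47 and 15 tags. Of NOVA2 intron clusters with 10 to 19 tags, 7 of 156 were shared (4.49%, 2.19 to 8.97). With 20 to 49 tags 13 of 78 were shared (16.7%, 10.01 to 26.5), and with 50 or more 19 of 29 (65.5%, 47.3 to 80.1). The whole list gave 2.25%, 12.8% and 60.6% in the same bins. Of the 10 unshared clusters of at least 50 tags, the highest was the one of 108 tags in intron 3 of Cntn5 at chr9:10390544-10390701. The depth behind each list cannot be read from the files, and its part in the overlap was not tested. The overlap moved with the tag minimum: with NOVA2 clusters of at least 25 tags alone, 41.5% of the NOVA2 and 69.4% of the NOVA1 member clusters were shared.

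Where a NOVA1 cluster overlapped a single NOVA2 cluster and no other, tags could be set side by side. In 36 such intron pairs the NOVA1 count divided by the NOVA2 count had a median of -1.83 on the log2 scale (-2.22 to -1.20), beside -2.04 (-2.08 to -2) over 3452 intron pairs of the whole lists. NOVA2 had more tags in 34 of the 36 pairs. The exceptions were a pair of equal counts, 13 and 13, in intron 13 of Cntn1 and a pair in intron 1 of Cntnap2 with 23 NOVA1 and 11 NOVA2 tags. The extreme pair in the other direction lay in intron 1 of Cntn1, with 10 NOVA1 and 161 NOVA2 tags. Cntnap2 pairs had a median of -1.28 (-2.20 to -0.55, 16 pairs) and Cntn5 pairs -1.75 (-2.93 to -1.20, 8 pairs). The 4 3' UTR pairs, 3 in Cntn1 and 1 in Cntn2, ran from -1.10 to 0.34. In 1 of them, in Cntn1, NOVA1 was higher, with 52 tags to 41. The median over all 2146 3' UTR pairs was -0.40. Neither list was scaled to its library depth, and the study obtained more unique tags for NOVA2 than for NOVA1. A log2 ratio of 0 therefore does not mean equal binding, and a value below 0 does not by itself show more binding by NOVA2. A pair also needs at least 10 tags in each list, so a site with few NOVA2 tags cannot show a ratio far below 0. This limits comparison of ratios between sites and genes. With at least 20 tags in both lists, the members' median over intron pairs was -2.37.

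**Figure D4:**
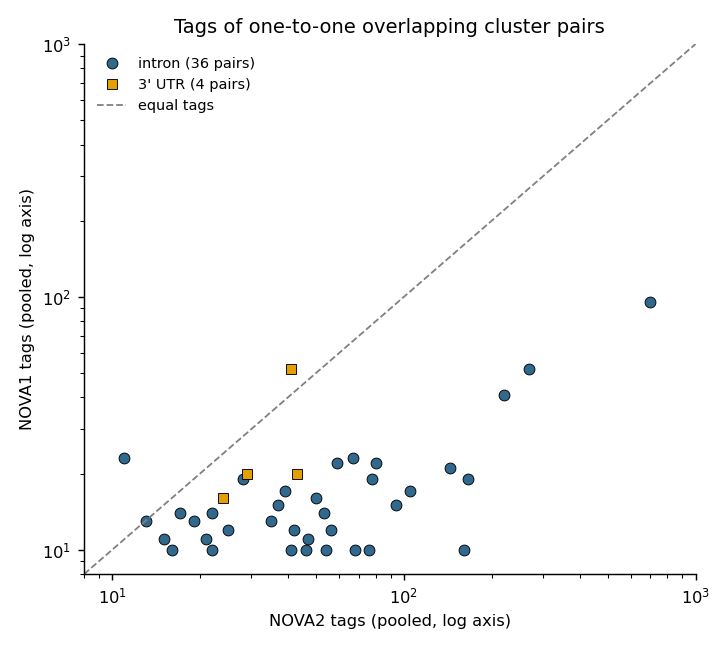
NOVA1 against NOVA2 pooled tags (both axes log) at one-to-one overlapping pairs, 36 in introns (circles) and 4 in 3' UTRs (squares), with a dashed line at equal tags. Intron pairs lie below the line except for 1 pair on it and 1 above it, and the 700-tag Cntn2 site is the rightmost point.

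Long introns held most of the clusters. The transcripts with the longest coding sequence had 206 introns, of which 89 were at least 10 kb and made up 94.7% of the intron length. These held 252 of 263 NOVA2 intron clusters (95.8%) and 38 of 40 NOVA1 intron clusters (95%). Of these 89 introns, 39 held a NOVA2 cluster and 9 a NOVA1 cluster. The 38 NOVA1 clusters could not have reached all 89, and whether the NOVA2 clusters were placed unevenly was not tested. The 17 introns of at least 100 kb made up 52.7% of the intron length and held 79.1% of the NOVA2 intron clusters.

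Intron 1 of Cntnap2, 593607 nt long, held 53 NOVA2 clusters (70.7% of the gene's intron clusters in 26.6% of its intron length) and 18 of its 19 NOVA1 clusters. Introns 1 and 3 of Cntn5, 263662 and 246913 nt long, held 28 and 21 NOVA2 clusters. Intron 1 of Cntn1, 164992 nt, held 25, and intron 3 of Cntn4, 199427 nt, held 23. In Cntn6, intron 7 held 9 of 12 NOVA2 intron clusters in 39340 nt, which was 22.9 per 100 kb, and all 9 lay nearer its 5' than its 3' end. The introns with most clusters in Cntnap5a (intron 1), Cntnap4 (intron 3) and Cntn3 (intron 4) held 8, 4 and 3. Counted together, first introns held 120 of 263 NOVA2 intron clusters (45.6%, 39.7 to 51.7) and 29 of 40 NOVA1 intron clusters (72.5%, 57.2 to 83.9), and they made up 23.4% of the intron length. Without Cntnap2 these shares were 35.6% and 52.4%, in 21.8% of the length. In coding genes of at least 100 kb, first introns held 27.1% of NOVA2 and 30.5% of NOVA1 intron clusters, in 23.9% of the intron length. The genes differed in this. In Cntn2, Cntn3, Cntn6 and Cntnap4 the first intron held no cluster of either list, and in Cntn2 it made up 37.1% of the intron length. In Cntn4 it held 14.6% of the NOVA2 intron clusters in 16.0% of the length, and 0 of 3 NOVA1 clusters.

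Spacing was measured from the end of a NOVA2 cluster to the start of the next in the same intron of at least 10 kb. The 213 gaps had a median of 4306 nt (2785 to 6574), beside 2665 nt (2534 to 2785) over 14574 gaps in such introns of all coding genes. These introns were not matched for length, which bounds a gap. Per 100 kb of such introns the members had 3.99 NOVA2 clusters, beside 3.36 over all coding genes. Gaps under 1 kb were 57 of 213 (26.8%, 21.3 to 33.1), beside 34.5% overall. With clusters of at least 20 tags the members' median gap was 9276 nt (4618 to 12715) and 16.9% of gaps were under 1 kb. The median was 8308 nt (4880 to 11201) in Cntnap2, 4786 nt (1620 to 9014) in Cntn4, 3613 nt (1984 to 7067) in Cntn5 and 2307 nt (737 to 7974) in Cntn1. These intervals also overlapped. In Cntn6 the median of 9 gaps was 770 nt (60 to 7464), and all 4 gaps of Cntn3 were at most 655 nt. A cluster alone in its intron adds no gap, as the one of 12 tags in intron 18 of Cntn3.

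Within the fullest introns, median gaps were shorter than even spacing, which is the intron length divided by the number of clusters plus 1. In Cntn5 intron 1 the median gap was 1984 nt beside an even spacing of 9092 nt, and in Cntn4 intron 3 2579 nt beside 8309 nt. In Cntn1 intron 1 it was 2307 nt beside 6346 nt and in Cntnap2 intron 1 6576 nt beside 10993 nt. Points placed at random also give a median gap below the even spacing, and the excess was not tested. The longest gaps in these introns were 70830, 36283, 31480 and 36969 nt.

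**Figure D5:**
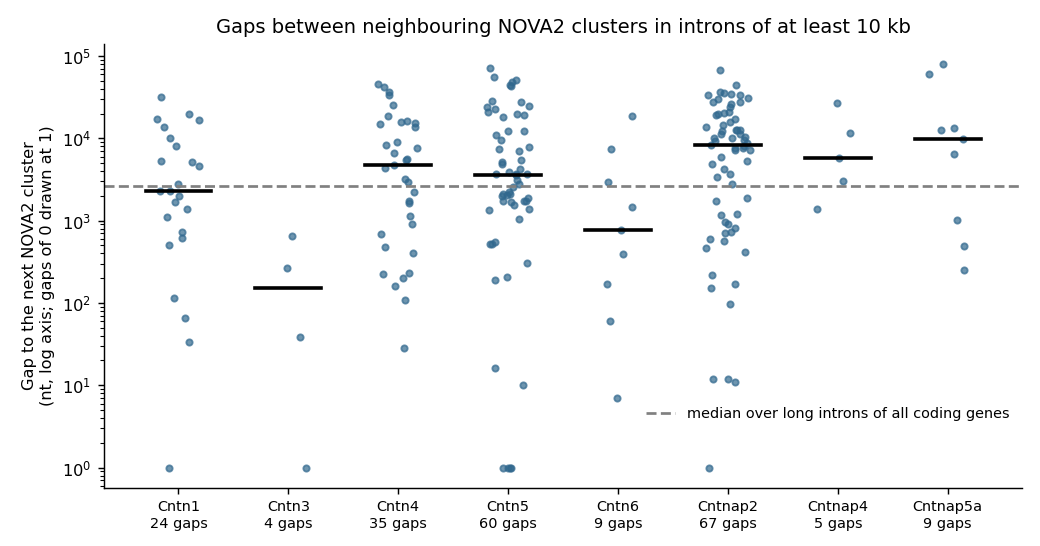
Gaps between neighbouring NOVA2 clusters (nt, log axis) in introns of at least 10 kb, 1 point per gap, with black bars at each gene's median and a dashed line at the median over all coding genes (2665 nt). Gaps run from abutting clusters to 79709 nt in Cntnap5a, and Cntn2 is absent because it has no intron of that length.

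The densest stretches of 10 kb each held 7 NOVA2 clusters. In Cntn4 intron 3, chr6:105929745-105938794 held clusters of 11 to 105 tags that summed to 294, and all 3 NOVA1 clusters of the gene. In Cntnap2 intron 1, chr6:45048868-45056865 held 229 NOVA2 tags and 3 NOVA1 clusters. In Cntn5 intron 1, chr9:10876958-10885958 held 147 NOVA2 tags and 1 NOVA1 cluster of 16 tags.

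Few intron clusters lay near an exon. Of 263 NOVA2 intron clusters, 6 were within 500 nt of any annotated exon of their gene (2.28%, 1.05 to 4.89), and of 40 NOVA1 intron clusters, 1 was. The counts were the same against exons of any gene on the strand. In the members' introns, 2.96% of all positions lie that close to an exon, so the NOVA2 share lay near that background. In the whole lists, 9.93% of NOVA2 and 11.96% of NOVA1 intron clusters were within 500 nt of an exon. The introns behind the whole lists were not matched to the members' introns for length. The median distance was 33873 nt for NOVA2 and 57452 nt for NOVA1 in the members. Besides the Cntn2 pair, the nearby NOVA2 clusters had 11 to 19 tags. In Cntn1, a cluster of 19 tags lay 473 nt upstream of exon 18, which has 71 nt like exon 17 of Cntn2. The exons matched at 43 of 71 positions (60.6%) without gaps. Cntn3, Cntn4, Cntn5 and Cntn6 also have an exon of 71 nt, but no cluster of either list lay within 500 nt of it. In Cntn3, a cluster of 12 tags lay 15 nt downstream of exon 18. In Cntn5, clusters of 11 and 15 tags lay 266 nt downstream of exon 23 and 456 nt upstream of exon 24. In Cntnap4, a cluster of 14 tags lay 197 nt downstream of exon 23. The annotation gives 12 skipped exons in the 9 genes, exons that an intron of another transcript passes over, and 0 of them had a cluster of either list within 500 nt. Of 21148 such exons in all coding genes 4.31% had one, so 0 of 12 lay near the background.

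YCAY was denser under the clusters than in the rest of the same introns. NOVA2 intron clusters held 43.2 YCAY per 1000 positions (41.1 to 45.5) and NOVA1 intron clusters 49.8 (43.7 to 56.7), beside 17.6 in the members' introns outside clusters. The folds were 2.46 (2.34 to 2.59) and 2.84 (2.49 to 3.23), with intervals that treat positions as independent. Per gene the NOVA2 fold ran from 2.28 in Cntn5 to 2.89 in Cntn4 in the long genes, and it was 4.86 in the 1 NOVA2 intron cluster of Cntn2. The whole lists had 44.9 (NOVA2) and 53.4 (NOVA1) per 1000 positions in intron clusters. Of the 100-nt windows centred on NOVA2 intron clusters, 219 of 263 held at least 3 YCAY (83.3%, 78.3 to 87.3), and of those on NOVA1 clusters 37 of 40 (92.5%, 80.1 to 97.4). Of all 66517 windows of 100 nt in the same introns, 25.4% did. Shared and unshared NOVA2 intron clusters had 43.0 and 43.3 YCAY per 1000 positions, values that differed by less than their intervals.

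The other genes of the family and the partner genes had clusters in part. Of the 4 remaining family members, Cntnap1, Cntnap3, Cntnap5b and Cntnap5c, 1 had NOVA1 and 3 had NOVA2 clusters. Cntnap5b led in both lists, with 2 and 10. Cntnap1, the partner of Cntn1, spans 20.2 kb and had none. Of 14 known partners and ligands, 9 had NOVA1 clusters (67 in all) and 11 had NOVA2 clusters (188 in all). Among coding genes of any length, 12.7% had a NOVA1 and 22.7% a NOVA2 cluster, but the genes looked up here were picked for their ties to contactins and differ widely in length, from 5.31 kb for Kcna2 to 713 kb for Cntnap5b. Chl1, an adhesion molecule of the L1 family, led in both lists, with 19 NOVA1 and 57 NOVA2 clusters and a highest NOVA2 cluster of 916 tags. The potassium channel genes Kcna1 and Kcna2, whose products lie with Cntn2 and Cntnap2 in the axon, had none in either list.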

How the data were processed

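HITS-CLIP libraries of NOVA1 and NOVA2 (3 each) were aligned by the authors to mm9, with Novoalign named in the study's methods, and PCR duplicates were removed. The authors kept clusters with tags from more than one library and deposited those of at least 10 tags. The deposited counts, all tags of a cluster or its highest depth, are pooled over libraries and not scaled to library size. No depth per sample can be read from the lists.

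Groups were taken from the sample titles. Coordinates are counted from 1 in mm9, of which NCBIM37 is the matching assembly (0 clusters ended past a chromosome end), with GENCODE vM1 genes. Classes went by most nucleotides on the strand, with coding sequence taken before UTRs, UTRs before noncoding exons and those before introns. Introns, numbered from the 5' end, were those of the transcript with the longest coding sequence. Of 27 genes looked up, 27 were found, 1 through a RefSeq synonym. Named clusters were the highest of each gene and list, all exonic ones, unshared NOVA1 ones, those within 500 nt of a skipped exon, and those of the fullest introns and densest stretches. Other clusters named were chosen after their values were seen. Python 3.11.15, NumPy 2.4.6 and SciPy 1.17.1 were used, and the code was tested on simulated data. Alternatives varied the tag minimum, the overlap, merging, exon sets, distances and members. The members and lists were chosen with earlier results of these data known.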

Additional observations from a re-analysis of the deposited data

How the results depend on the processing

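No paired analysis was possible because the counts are pooled over libraries, and for the same reason no replicate could be left out. Of 77 recomputed values, 63 stayed within 1.5 times the main count or within the main interval, and 14 moved. With at least 20 tags in both lists, 14 NOVA1 and 113 NOVA2 member clusters were left, 11.5% of the NOVA2 clusters were shared, 94.7% were intronic, the median log2 tag ratio at intron pairs was -2.37, the median NOVA2 gap was 9276 nt and 16.9% of gaps were under 1 kb. With at least 25 tags for NOVA2 alone, 82 NOVA2 clusters were left, 69.4% of NOVA1 and 41.5% of NOVA2 member clusters were shared. Merging clusters within 50 nt lowered the share of gaps under 1 kb to 20.8%. Without Cntnap2, 30 NOVA1 clusters were left. With flanks 200 to 500 nt away as background, the NOVA2 YCAY fold was 2.33. Leaving out Cntn1 or Cntn5 was chosen after seeing the data, and without Cntn1 the NOVA2 intron share was 99.1%. Fewer clusters enter when a tag minimum rises or a gene is left out; for the other changes the cause was not tested. The NOVA2 share that overlapped NOVA1 moved with both tag minima, and the NOVA1 share only with the one for NOVA2. Depth could not be varied, and its part in any count was not tested.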
